A study of Mus musculus with 9 samples.

Results

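Dual-specificity phosphatases that act on MAP kinases were examined in L8057, a megakaryocytic cell line derived from a mouse leukaemia. The members were Dusp1, Dusp2, Dusp4, Dusp5, Dusp6, Dusp7, Dusp10 and Dusp16, each represented by every probe set annotated to that symbol and no other. They came to 8 genes of 18193 and to 12 probe sets of 45037. Dusp7 had 3 probe sets, Dusp10 and Dusp16 had 2 each, and the other members had 1. The cells carried a lentiviral shRNA against CBFb (CBFb_KD), an shRNA against Ring1b (Ring1b_KD) or the Control vector, with 3 arrays in each of the 3 groups. CBFb is the partner subunit of the RUNX transcription factors, and Ring1b, encoded by Rnf2, is a catalytic subunit of Polycomb repressive complex 1. Puromycin, which selects infected cells, and 50 nM TPA, a phorbol ester that induces maturation of this line, were given together once 48 h had passed from infection, and cells were collected for RNA a further 72 h on. All the groups, Control included, were therefore infected, selected and TPA-treated, and no array of untreated cells was analysed. Each knockdown was made in 1 cell line, the labels do not say how many shRNA sequences were used or whether replicates were infected separately, and p-values therefore reflect only how far these arrays spread, which may be technical.

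MAP kinases such as ERK, JNK and p38 are switched on when a kinase phosphorylates a threonine and a tyrosine in their activation loop, and these phosphatases remove both phosphates. Dusp1, Dusp2, Dusp4 and Dusp5 encode mainly nuclear enzymes that are transcribed soon after a stimulus, Dusp6 and Dusp7 encode cytoplasmic enzymes selective for ERK, and Dusp10 and Dusp16 encode enzymes directed mainly at JNK and p38. TPA activates protein kinase C and, through it, the ERK cascade, and sustained ERK signalling accompanies megakaryocyte maturation. Several of the phosphatases are transcribed in response to the kinases they inactivate, so they form a negative feedback on the pathway.

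The targeted transcripts were reduced in the groups that carried their shRNA. Cbfb averaged 9.19 ± 0.11 in CBFb_KD, 12.24 ± 0.07 in Ring1b_KD and 12.37 ± 0.12 in Control (log2 signal, SD, n = 3 each), which was 9.02-fold lower in CBFb_KD than in Control. Rnf2 averaged 10.55 ± 0.02 in CBFb_KD, 8.98 ± 0.08 in Ring1b_KD and 10.65 ± 0.08 in Control, which was 3.17-fold lower in Ring1b_KD than in Control. Arrays of the same group correlated at 0.995 to 0.997 over all probe sets and arrays of different groups at 0.987 to 0.994. All values are quantile-normalized log2 signals of 1 probe set and are compared between groups only, never between probe sets. A gene or probe set is said to have risen or fallen where limma's adjusted p was under 0.05, with Benjamini-Hochberg adjustment over all 18193 genes or, for separate probe sets, over all 45037. The CBFb_KD and Ring1b_KD comparisons share the 3 Control arrays.

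Promoter sequence of RefSeq (GRCm38.p6, 250 bases upstream of the transcription start, 5′ to 3′ on the gene's strand) was found for 7 of the 8 members. Shown are the 4 that carry the contrasts described next: Dusp10, which moved in opposite directions in the knockdowns, Dusp2, which rose in both, and Dusp1 and Dusp5, stimulus-induced genes that passed no test with all 9 arrays. They lie at chr1:184034131-184034380 on the + strand (Dusp10), chr2:127335909-127336158 on the + strand (Dusp2), chr17:26508473-26508722 on the - strand (Dusp1) and chr19:53528895-53529144 on the + strand (Dusp5). Capitals mark every match to the 6 motifs searched on both strands.
Dusp10: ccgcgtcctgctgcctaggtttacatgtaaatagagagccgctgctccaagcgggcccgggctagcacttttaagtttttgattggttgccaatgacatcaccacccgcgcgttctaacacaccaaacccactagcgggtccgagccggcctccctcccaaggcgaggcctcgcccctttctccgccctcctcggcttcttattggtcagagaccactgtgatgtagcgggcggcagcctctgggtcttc
Dusp2: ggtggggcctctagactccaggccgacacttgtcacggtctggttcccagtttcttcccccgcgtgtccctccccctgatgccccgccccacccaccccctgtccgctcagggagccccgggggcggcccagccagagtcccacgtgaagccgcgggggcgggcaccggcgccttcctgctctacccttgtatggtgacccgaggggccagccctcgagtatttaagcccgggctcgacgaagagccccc
Dusp1: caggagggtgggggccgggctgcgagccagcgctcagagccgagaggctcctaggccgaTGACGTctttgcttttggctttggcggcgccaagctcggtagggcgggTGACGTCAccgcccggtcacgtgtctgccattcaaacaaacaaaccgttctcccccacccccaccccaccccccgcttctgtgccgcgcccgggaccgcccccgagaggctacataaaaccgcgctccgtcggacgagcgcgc
Dusp5: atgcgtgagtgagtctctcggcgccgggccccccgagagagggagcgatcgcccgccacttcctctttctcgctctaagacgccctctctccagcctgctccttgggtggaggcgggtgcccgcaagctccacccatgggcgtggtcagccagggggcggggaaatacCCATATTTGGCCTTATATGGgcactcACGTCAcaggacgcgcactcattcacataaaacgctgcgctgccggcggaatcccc
The motifs were a RUNX core (TGTGGT, present in this window of 14.0% of all 32851 RefSeq promoters), an AP-1 site (TGANTCA, 6.75%), a CRE core (TGACGT, 6.47%), an ETS site (CCGGAAG, 6.91%), a GATA site (AGATAA, 9.99%) and the CArG box bound by serum response factor (1.47%). The Dusp1 stretch held 3 CRE cores, which began 191, 143 and 141 bases upstream of the start, the last 2 overlapping each other. The Dusp5 stretch held 2 adjoining CArG boxes, which began 82 and 72 bases upstream, and a CRE core 56 bases upstream. Neither Dusp10 nor Dusp2 held any of these letters in this window, and the same was so of Dusp6, Dusp7 and Dusp16. A match describes the sequence only.

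In CBFb_KD against Control, 2 of the 8 member genes rose (Dusp10 and Dusp2) and 1 fell (Dusp7), while 15.4% of all genes were called, 7.78% higher and 7.6% lower. In Ring1b_KD against Control, 1 rose (Dusp2) and 1 fell (Dusp10), against 12.2% of all genes called, 5.66% higher and 6.57% lower. In CBFb_KD against Ring1b_KD, 2 were higher (Dusp10 and Dusp6) and 0 lower, against 19.4% of all genes called, 10.1% higher and 9.31% lower. With 8 members, the shares over all genes come to 1 or 2 genes, beside 3, 2 and 2 members called in the same order. Whether the members were called more often than all genes was not tested. The median size of the members' log2 difference, regardless of sign, was 0.163 in CBFb_KD against Control (0.098 over all genes), 0.316 in Ring1b_KD against Control (0.113 over all genes) and 0.214 between the knockdowns (0.124 over all genes). The signed medians were 0.03, -0.07 and 0.01 in the same order, beside -0.01, 0.01 and -0.02 over all genes, so the members did not shift together in one direction. All members but Dusp4 and Dusp5 stood at the 58.6th to 90.4th percentile of signal. The median sizes were not set against genes of like brightness. The arrays of the groups compared did not overlap for 3 members in CBFb_KD against Control, 4 in Ring1b_KD against Control and 2 between the knockdowns, where 31.6%, 32.9% and 33.8% of all genes did not overlap. Among the separate probe sets, 3 of 12 rose and 1 fell in CBFb_KD (9.64% of all probe sets called), 1 rose and 3 fell in Ring1b_KD (8.48%), and 3 were higher in CBFb_KD than in Ring1b_KD (13.4%). Leaving out Control array 3 reduced the called member genes in Ring1b_KD to 0 and the called probe sets to 2 in each knockdown, and leaving out Control array 1 also left 2 probe sets in Ring1b_KD.

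**Figure D1:**
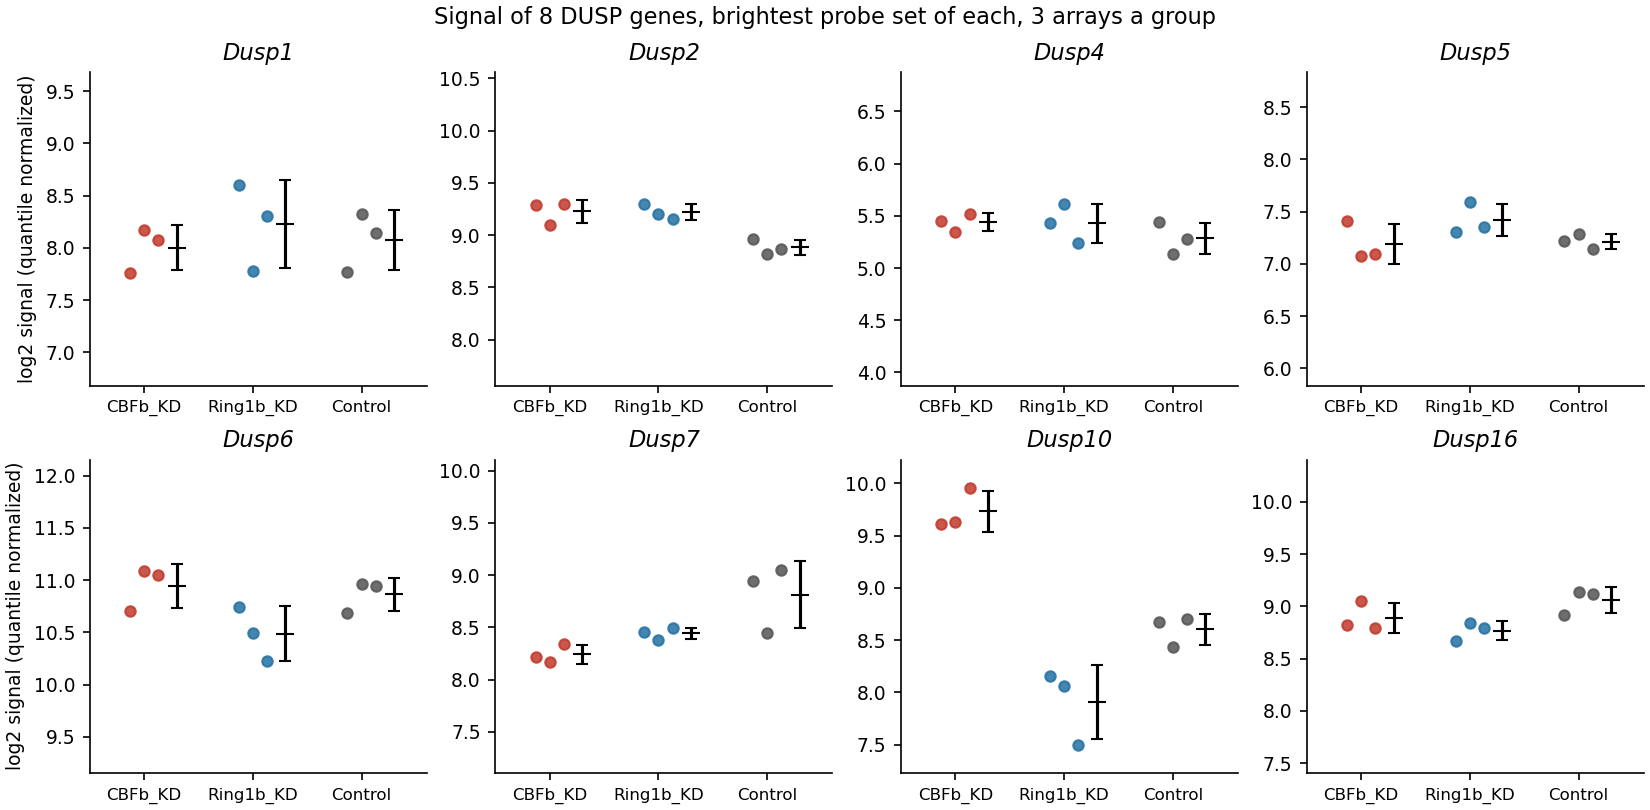
Log2 signal (quantile normalized) of the brightest probe set of each member by group, CBFb_KD, Ring1b_KD and Control. Dots are the 3 arrays of a group and bars the mean ± SD; each panel has its own range of log2 signal. The Dusp10 arrays form 3 separate levels, CBFb_KD highest and Ring1b_KD lowest, whereas the Dusp1 and Dusp4 arrays of the groups overlap.

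Dusp10 encodes a phosphatase of JNK and p38, and its gene spans chr1:184034381-184075636. Its brighter probe set, 1417164_at, read 9.61, 9.63 and 9.96 in the CBFb_KD arrays, 8.16, 8.06 and 7.50 in the Ring1b_KD arrays, and 8.68, 8.44 and 8.70 in the Control arrays (log2 signal). No array of any group reached into the range of another, and the order was CBFb_KD, then Control, then Ring1b_KD. Dusp10 rose by 1.13 on the log2 scale in CBFb_KD (2.19-fold, SE 0.155, limma adjusted p = 0.000367, higher in 3 of 3 arrays). It fell by 0.70 in Ring1b_KD (1.62-fold, limma adjusted p = 0.0117, lower in 3 of 3 arrays). The difference between the knockdowns was 1.83 (3.55-fold, limma adjusted p = 8.66e-06). In bulk RNA a transcript made by fewer cells and one made at a lower level per cell cannot be told apart. The Ring1b_KD fall lost its call only without Control array 3 (-0.65, limma adjusted p = 0.0516) and was smallest without Ring1b_KD array 3, the lowest of that group (-0.50, limma adjusted p = 0.021).

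The second probe set of Dusp10, 1417163_at, gave the same order. It read 8.85, 8.82 and 9.07 in CBFb_KD, 7.38, 7.37 and 6.82 in Ring1b_KD, and 7.96, 7.88 and 8.18 in Control. Again the 3 groups were apart, and Ring1b_KD array 3 was again the lowest of all 9. Over the separate probe sets, limma gave 0.91 in CBFb_KD (1.87-fold, adjusted p = 0.00193), -0.82 in Ring1b_KD (1.76-fold lower, adjusted p = 0.00508) and 1.72 between the knockdowns (3.30-fold, adjusted p = 2.06e-05). The probe sets correlated at 0.99 over the 9 arrays, which they share, so the second is a check of the probes and not of the cells.

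**Figure D2:**
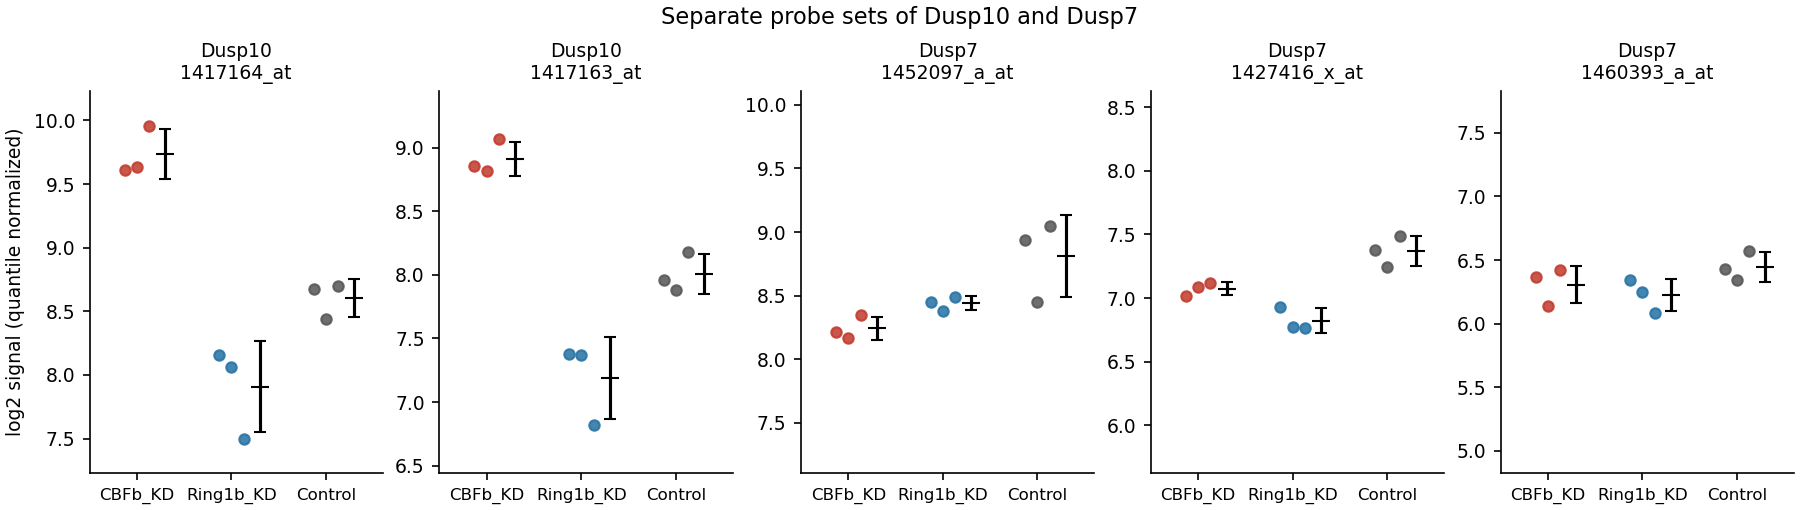
Log2 signal (quantile normalized) of the separate probe sets of Dusp10 (2) and Dusp7 (3) by group, CBFb_KD, Ring1b_KD and Control; dots are arrays and bars the mean ± SD of 3. Both Dusp10 probe sets show the same 3 levels, while the Dusp7 probe sets differ in which knockdown is lowest.

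The averages of the megakaryocyte and erythroid markers, like Dusp10, were higher in CBFb_KD than in Control, while those of the other marker lists overlapped Control. Of 17 megakaryocyte markers 15 were measured, 9 of them above the median gene, and their mean log2 signal by array lay at 9.23 to 9.27 in CBFb_KD, 8.10 to 8.51 in Ring1b_KD and 8.21 to 8.50 in Control. Of these, 7 rose and 0 fell in CBFb_KD, where 15.4% of all genes were called (12.2% in Ring1b_KD). In Ring1b_KD 0 rose and 1 fell, Vwf (named after its values were seen), which was no longer called without Ring1b_KD array 1, Ring1b_KD array 3 or Control array 2. The 6 measured erythroid markers of 9 averaged 8.29 to 8.48 in CBFb_KD, 7.86 to 8.05 in Ring1b_KD and 7.76 to 7.86 in Control, and 3 of them rose in CBFb_KD (Alas2, Epb42 and Epor, named after their values were seen). The 11 granulocyte and monocyte markers averaged 6.84 to 7.03 in CBFb_KD, 6.73 to 6.89 in Ring1b_KD and 6.83 to 6.93 in Control. The 8 mast cell and basophil markers averaged 7.92 to 8.02, 8.04 to 8.38 and 7.80 to 8.28, and the 8 measured lymphocyte markers of 10 averaged 7.12 to 7.26, 7.03 to 7.15 and 7.11 to 7.16, in the same group order. Calls of single genes in these lists went in both directions. They stand beside 15.4% of all genes called in CBFb_KD and 12.2% in Ring1b_KD, and no list was tested as a set. With 11 genes, the granulocyte and monocyte counts that follow lie near those shares. Of the granulocyte and monocyte markers 1 rose and 1 fell in CBFb_KD, namely Prtn3 (1.42, limma adjusted p = 3.76e-06) and Ctsg (-0.70, limma adjusted p = 0.0363), both named after their values were seen, and 1 call was left without any 1 CBFb_KD or Control array. In Ring1b_KD 0 of them rose and 1 fell, a count of 0 without Control array 1 or Control array 2 and of 2 without Ring1b_KD array 2. Of the mast cell and basophil markers 1 rose and 2 fell in CBFb_KD, and 2 rose and 1 fell in Ring1b_KD. Of the lymphocyte markers 0 were called in CBFb_KD by limma (0 at an unadjusted p under 0.05), and 1 rose and 1 fell in Ring1b_KD, with 1 left without any 1 Ring1b_KD or Control array. In CBFb_KD the list averages lay wholly above those of Control for the megakaryocyte and erythroid markers. In Ring1b_KD, where Dusp10 fell, the lowest erythroid average (7.862) was barely above the highest of Control (7.856). There 0 of the 6 erythroid markers were called by limma (1 at an unadjusted p under 0.05), and 1 without CBFb_KD array 1 or Ring1b_KD array 3. The megakaryocyte averages of Ring1b_KD overlapped Control. The part of these shifts in the Dusp10 values was not tested.

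Dusp16, the other member directed at JNK and p38, did not pass the test in any comparison. Its brighter probe set, 1418401_a_at, read 8.82, 9.06 and 8.79 in CBFb_KD, 8.67, 8.84 and 8.79 in Ring1b_KD, and 8.92, 9.14 and 9.12 in Control. The Ring1b_KD arrays lay below all Control arrays, by 0.29 (95% interval of the log2 difference -0.50 to -0.08, limma adjusted p = 0.068). The CBFb_KD arrays overlapped Control (-0.17, interval -0.38 to 0.04, limma adjusted p = 0.315). The Ring1b_KD difference passed the test on the values as deposited (-0.37, limma adjusted p = 0.0289) and after median centring of the arrays (-0.45, limma adjusted p = 0.0133). It also passed with replicate number as blocking factor (limma adjusted p = 0.0316) and without CBFb_KD array 2 (limma adjusted p = 0.0497). Same-numbered Ring1b_KD and Control arrays did not deviate together, so that block pairs them by number alone. The second probe set, 1440615_at, stood at the 11.5th percentile of signal, between 4.30 and 4.72 on all 9 arrays, with overlapping groups, and correlated with the brighter one at 0.19. Dusp10 and Dusp16 correlated at 0.15 over the 9 arrays, a description of arrays that also share group and processing.

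Dusp6 encodes a cytoplasmic phosphatase that is selective for ERK and is induced by it. Its probe set read 10.70, 11.09 and 11.05 in CBFb_KD, 10.75, 10.50 and 10.22 in Ring1b_KD, and 10.69, 10.97 and 10.94 in Control. Ring1b_KD arrays 2 and 3 were below every other array, and Ring1b_KD array 1 lay within the range of both other groups. Dusp6 was 1.38-fold higher in CBFb_KD than in Ring1b_KD (0.46 on the log2 scale, SE 0.136, limma adjusted p = 0.031). Against Control it differed by 0.08 in CBFb_KD (interval -0.21 to 0.38, limma adjusted p = 0.792) and by -0.38 in Ring1b_KD (interval -0.67 to -0.08, limma adjusted p = 0.0933). The difference between the knockdowns lost its call when only the 6 arrays compared were fitted (limma adjusted p = 0.0548). It was also lost without CBFb_KD array 2 (0.39, limma adjusted p = 0.112), CBFb_KD array 3 (0.41, limma adjusted p = 0.111), Ring1b_KD array 2 (0.46, limma adjusted p = 0.0694) or Ring1b_KD array 3 (0.33, limma adjusted p = 0.119). The Ring1b_KD difference from Control, in turn, passed the test after median centring of the arrays (-0.57, limma adjusted p = 0.037) and without Ring1b_KD array 1 (-0.50, limma adjusted p = 0.0392).

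Dusp7 encodes the other cytoplasmic phosphatase selective for ERK. Its brightest probe set, 1452097_a_at, read 8.22, 8.17 and 8.35 in CBFb_KD, 8.45, 8.38 and 8.49 in Ring1b_KD, and 8.94, 8.45 and 9.05 in Control. Every CBFb_KD array was below every Control array, while Control array 2 fell among the Ring1b_KD arrays. Dusp7 fell by 0.57 in CBFb_KD (1.48-fold, SE 0.129, limma adjusted p = 0.00862), a call that held under all 18 alternatives, with adjusted p from 0.000546 to 0.0482. The difference in Ring1b_KD was -0.37 (limma adjusted p = 0.0819) and that between the knockdowns -0.20 (interval -0.48 to 0.08, limma adjusted p = 0.321). The Ring1b_KD difference passed the test without Control array 2 (-0.55, limma adjusted p = 0.00642) and with replicate number as blocking factor (limma adjusted p = 0.03), which here pairs arrays by number alone. It also passed on the values as deposited (-0.42, limma adjusted p = 0.0416), after median centring of the arrays (-0.51, limma adjusted p = 0.0122) and for the mean of the probe sets (-0.38, limma adjusted p = 0.0233).

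The other Dusp7 probe sets ranked the knockdowns differently. Probe set 1427416_x_at read 7.02, 7.09 and 7.12 in CBFb_KD, 6.93, 6.77 and 6.76 in Ring1b_KD, and 7.37, 7.25 and 7.49 in Control. Here the 3 groups were apart and Ring1b_KD was the lowest, by 0.55 below Control (probe-set limma adjusted p = 0.00307), with CBFb_KD 0.30 below Control (probe-set limma adjusted p = 0.0563). In this array design the suffix x marks probes that can bind other transcripts, so its identity is less certain. Probe set 1460393_a_at read 6.37, 6.14 and 6.42 in CBFb_KD, 6.34, 6.25 and 6.09 in Ring1b_KD, and 6.43, 6.34 and 6.57 in Control, and passed no test (probe-set limma adjusted p = 0.54 in CBFb_KD and 0.214 in Ring1b_KD). All 3 probe sets averaged lower in both knockdowns than in Control. Their pairwise correlations over the 9 arrays were 0.62 to 0.77, well below that of the Dusp10 pair.

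Dusp2 encodes a nuclear phosphatase of ERK and p38 found mainly in blood cells. Its probe set read 9.29, 9.10 and 9.29 in CBFb_KD, 9.30, 9.21 and 9.16 in Ring1b_KD, and 8.96, 8.82 and 8.87 in Control. All 6 knockdown arrays were above all 3 Control arrays, and the knockdowns overlapped each other. Dusp2 rose by 0.35 in CBFb_KD (1.27-fold, SE 0.0845, limma adjusted p = 0.0136) and by 0.34 in Ring1b_KD (1.26-fold, limma adjusted p = 0.0204). The knockdowns differed by 0.01 (interval -0.18 to 0.19, limma adjusted p = 0.969). The CBFb_KD call was lost without CBFb_KD array 3 (0.31, limma adjusted p = 0.0639), Control array 2 (0.31, limma adjusted p = 0.0659) or Control array 3 (0.34, limma adjusted p = 0.0547). The Ring1b_KD call was lost without Ring1b_KD array 1 (0.30, limma adjusted p = 0.0627), Control array 2 (0.30, limma adjusted p = 0.0911) or Control array 3 (0.33, limma adjusted p = 0.0733). It was also lost on the values as deposited (0.26, limma adjusted p = 0.0717) and after median centring of the arrays (0.17, limma adjusted p = 0.259).

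Dusp1, Dusp4 and Dusp5, the other nuclear members induced by stimuli, passed no test with all 9 arrays. Dusp1, whose product acts on p38, JNK and ERK, read 7.76, 8.17 and 8.07 in CBFb_KD, 8.60, 7.78 and 8.31 in Ring1b_KD, and 7.77, 8.33 and 8.14 in Control. Ring1b_KD alone spread from among the lowest arrays to the highest, and all the groups overlapped (95% interval of the log2 difference -0.49 to 0.33 in CBFb_KD and -0.26 to 0.56 in Ring1b_KD). Dusp5, whose product is a nuclear phosphatase selective for ERK, read 7.41, 7.07 and 7.09 in CBFb_KD, 7.31, 7.60 and 7.36 in Ring1b_KD, and 7.22, 7.28 and 7.14 in Control. Its Ring1b_KD arrays lay above the Control arrays by 0.21 (interval -0.02 to 0.44, limma adjusted p = 0.235), and its CBFb_KD arrays overlapped both groups (-0.02 against Control, interval -0.25 to 0.21, limma adjusted p = 0.937). Between the knockdowns Dusp5 differed by -0.23 (limma adjusted p = 0.158), and this passed the test without CBFb_KD array 1, the highest of that group (-0.34, limma adjusted p = 0.0328). Dusp4 was dim, at the 16.9th percentile of genes, and read 5.45, 5.35 and 5.52 in CBFb_KD, 5.43, 5.61 and 5.24 in Ring1b_KD, and 5.44, 5.14 and 5.27 in Control. The groups overlapped, and the intervals of -0.07 to 0.38 in CBFb_KD and -0.08 to 0.37 in Ring1b_KD are those of a probe set near the floor of the array, where differences are compressed.

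**Figure D3:**
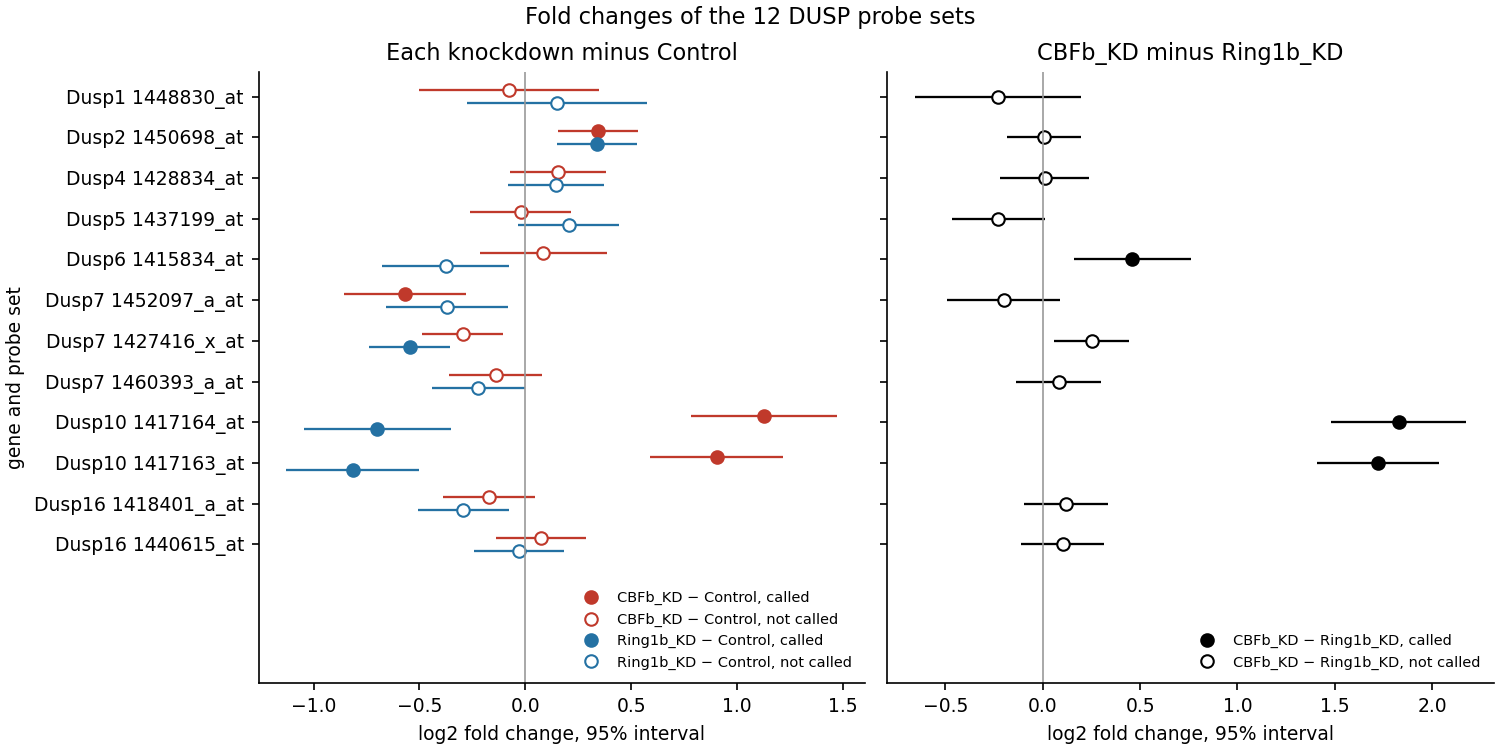
Log2 fold changes of the 12 member probe sets with 95% intervals of the probe-set fit, each knockdown minus Control on the left and CBFb_KD minus Ring1b_KD on the right; filled points passed the test. The 2 Dusp10 probe sets lie furthest from 0 in each panel, and the Dusp1, Dusp4 and Dusp5 intervals against Control all include 0.

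By the likeness of their values over the 9 arrays, the genes closest to each called member were found among genes at or above the median level. For Dusp10 these were Polr2e, a shared subunit of the RNA polymerases (Pearson r 0.991), and Lrp10, a lipoprotein receptor family member (0.988). Lrp10 averaged 12.69 ± 0.08 in CBFb_KD, 11.96 ± 0.09 in Ring1b_KD and 12.25 ± 0.02 in Control (SD, n = 3 each), the same order as Dusp10. For Dusp2 they were Tmem63b (0.963) and Rb1, the retinoblastoma tumour suppressor gene (0.96). For Dusp6 they were Npc1, which encodes a lysosomal cholesterol transporter (0.968), and Ift74, an intraflagellar transport gene (0.947). For Dusp7 they were Wdhd1, which acts in DNA replication (0.948), and Ska3, which acts at kinetochores (0.935). These are the highest of many correlations over arrays that share groups and normalization, given as a description.

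Of 5 other MAP kinase phosphatases listed, 4 were measured and 0 rose or fell in either knockdown against Control by limma (0 in CBFb_KD and 2 in Ring1b_KD at an unadjusted p under 0.05). With 4 genes such a count lies near the 15.4% and 12.2% of all genes called. Without CBFb_KD array 1 or Control array 1, 1 was called in Ring1b_KD. Dusp8, another phosphatase of JNK and p38, averaged 8.32 ± 0.19 in CBFb_KD, 8.69 ± 0.15 in Ring1b_KD and 8.36 ± 0.08 in Control, and its Ring1b_KD arrays lay above the Control arrays by 0.33 (limma adjusted p = 0.065). It was the lower in CBFb_KD, with a difference from Ring1b_KD of -0.37 (limma adjusted p = 0.0285). That call was lost without CBFb_KD array 2, CBFb_KD array 3 or Ring1b_KD array 3. It was also lost on the values as deposited (limma adjusted p = 0.0612), after median centring (-0.21, limma adjusted p = 0.149) and with only the 6 arrays compared (limma adjusted p = 0.0593). Dusp9, an ERK phosphatase, averaged 6.24 ± 0.09, 6.25 ± 0.07 and 6.23 ± 0.07 in the same order. Of the 16 genes listed as atypical DUSP genes, most of which encode small phosphatases without the MAP kinase-binding domain, 1 rose and 1 fell in CBFb_KD. In Ring1b_KD 2 of them rose. With 16 genes these counts, too, lie near the 15.4% and 12.2% of all genes called. The CBFb_KD pair, Styxl1 at 0.25 (limma adjusted p = 0.048) and Dusp12 at -0.35 (limma adjusted p = 0.0388), were both uncalled without CBFb_KD array 2 or any 1 Control array, and 1 was left without CBFb_KD array 1, Ring1b_KD array 1 or Ring1b_KD array 3. Styxl1 alone was also lost without Ring1b_KD array 2, on the values as deposited, after median centring, with robust variance, with no trend and with only the 6 arrays compared. With replicate number as blocking factor Styxl1 was not called (limma adjusted p = 0.0514). Dusp12 was also lost without CBFb_KD array 3 (limma adjusted p = 0.149) and for the mean of its probe sets (-0.16, limma adjusted p = 0.144). In Ring1b_KD, Styx, a pseudophosphatase gene, rose by 0.41 (limma adjusted p = 0.00642) and Dusp19 by 0.34 (limma adjusted p = 0.042), and 1 of them was left without Ring1b_KD array 3 or any 1 Control array. Neither was called on the values as deposited (Styx 0.30, limma adjusted p = 0.0561, and Dusp19 0.25, limma adjusted p = 0.127). After median centring Styx came to 0.21 (limma adjusted p = 0.233) and Dusp19 to 0.16 (limma adjusted p = 0.371). Dusp19 was also lost without Ring1b_KD array 1 (limma adjusted p = 0.122) and for the mean of its probe sets (limma adjusted p = 0.113).

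The kinases these phosphatases act on or answer to were described from lists, whose medians (log2) are given beside -0.01 over all genes in CBFb_KD and 0.01 in Ring1b_KD. Their called counts stand beside 15.4% of all genes called in CBFb_KD and 12.2% in Ring1b_KD. No list was tested as a set. In the ERK cascade 15 of 22 listed genes were measured, and the others were not analysed here. In CBFb_KD, 2 of the 15 rose and 1 fell: Rras, a Ras-family GTPase, rose by 0.81 (limma adjusted p = 0.000493), Ksr1, a scaffold of the cascade, rose by 0.51 (limma adjusted p = 0.00776), and Sos1, an exchange factor that activates Ras, fell by 0.93 (limma adjusted p = 0.000192). These 3 were the count in each fit that left out 1 array. In Ring1b_KD, 2 rose and 0 fell: Rras by 0.44 (limma adjusted p = 0.0255) and Nras by 0.37 (limma adjusted p = 0.0349). That count was 0 without Ring1b_KD array 1, Ring1b_KD array 2 or Control array 2, 1 without Ring1b_KD array 3, Control array 1 or Control array 3, and 4 both on the values as deposited and after median centring. Those 4 included neither Rras (0.38, limma adjusted p = 0.0575, as deposited and 0.29, limma adjusted p = 0.156, centred) nor Nras (0.26, limma adjusted p = 0.173, and 0.17, limma adjusted p = 0.453). The list's median was -0.02 in CBFb_KD and 0.02 in Ring1b_KD.

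In the JNK and p38 cascades, which hold the substrates of the Dusp10 and Dusp16 products, 20 of 21 listed genes were measured. In CBFb_KD, 5 rose and 0 fell (15.4% of all genes called). Among them Map2k3, an activating kinase of p38, rose by 0.82 (limma adjusted p = 0.000108), and Map2k6, another such kinase, by 0.46 (limma adjusted p = 0.0124). Mapk14, which encodes p38 alpha, rose by 0.43 (limma adjusted p = 0.00124, not called for the mean of its probe sets), and Mapk8, which encodes JNK1, by 0.28 (limma adjusted p = 0.0231). The fifth was Map3k1 (0.37, limma adjusted p = 0.0357), outside the rule for naming. The count was 2 without CBFb_KD array 2 or Control array 3 and 3 without Control array 1, without Control array 2 or for the mean of probe sets. In Ring1b_KD, 4 rose and 1 fell (12.2% of all genes called). Map3k2, which encodes an upstream kinase, fell by 0.63 (limma adjusted p = 0.000534), and Map3k1, another, rose by 0.47 (limma adjusted p = 0.0128). Mapkapk3, a kinase activated by p38, rose by 0.36 (limma adjusted p = 0.0162), and Mapk8 by 0.27 (limma adjusted p = 0.0342). The fifth, Map2k3 (0.32, limma adjusted p = 0.0412), also lay outside the rule for naming. The count was 1 without Control array 3, 2 without Ring1b_KD array 2 or Control array 2, and 3 without Ring1b_KD array 1 or Control array 1. It was 3 after median centring, where Map3k1 (0.31, limma adjusted p = 0.111), Mapkapk3 (0.22, limma adjusted p = 0.119), Mapk8 (0.08, limma adjusted p = 0.582) and Map2k3 (0.14, limma adjusted p = 0.535) were not called. It was 2 for the mean of probe sets, where Mapkapk3, Mapk8 and Map2k3 were not called. The list's median was 0.03 in CBFb_KD and 0.07 in Ring1b_KD.

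Other feedback inhibitors of the ERK pathway, the Sprouty and Spred genes and related regulators, numbered 13, all measured. In CBFb_KD, 1 rose and 0 fell, namely Rasa3, a Ras GTPase-activating protein gene (0.71, limma adjusted p = 0.00115). In Ring1b_KD, 0 rose and 1 fell, namely Spred2 (-0.36, limma adjusted p = 0.0194), a call lost without Ring1b_KD array 1 or any 1 Control array and for the mean of its probe sets (-0.15, limma adjusted p = 0.172). These counts became 2 without Ring1b_KD array 3 in CBFb_KD and 2 without CBFb_KD array 1 in Ring1b_KD. Of 25 ERK-responsive early genes, 6 rose and 3 fell in CBFb_KD, and 5 rose and 5 fell in Ring1b_KD, so neither knockdown moved the list one way. Over all genes 15.4% were called in CBFb_KD and 12.2% in Ring1b_KD, smaller shares than in this list. That difference was not tested. In CBFb_KD the 4 with the smallest adjusted p were Phlda1 (1.58, limma adjusted p = 9.51e-06), Myc (-0.74, limma adjusted p = 6.32e-05), Etv5 (-0.72, limma adjusted p = 0.000902) and Fosl2 (1.77, limma adjusted p = 0.00243). In Ring1b_KD they were Etv5 (-0.98, limma adjusted p = 0.000236), Myc (-0.46, limma adjusted p = 0.00267), Fosl2 (1.62, limma adjusted p = 0.0068, not called with robust variance) and Ier2 (0.51, limma adjusted p = 0.00689, not called after median centring). The Ring1b_KD count was 5 without Control array 3. The medians were 0.05 in CBFb_KD and -0.05 in Ring1b_KD for the early genes, and 0.028 in CBFb_KD and 0.045 in Ring1b_KD for the feedback inhibitors. Between the knockdowns, Phlda1 was higher in CBFb_KD by 1.97 (limma adjusted p = 9.42e-07), the gene of this list with the smallest adjusted p there.

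**Figure D4:**
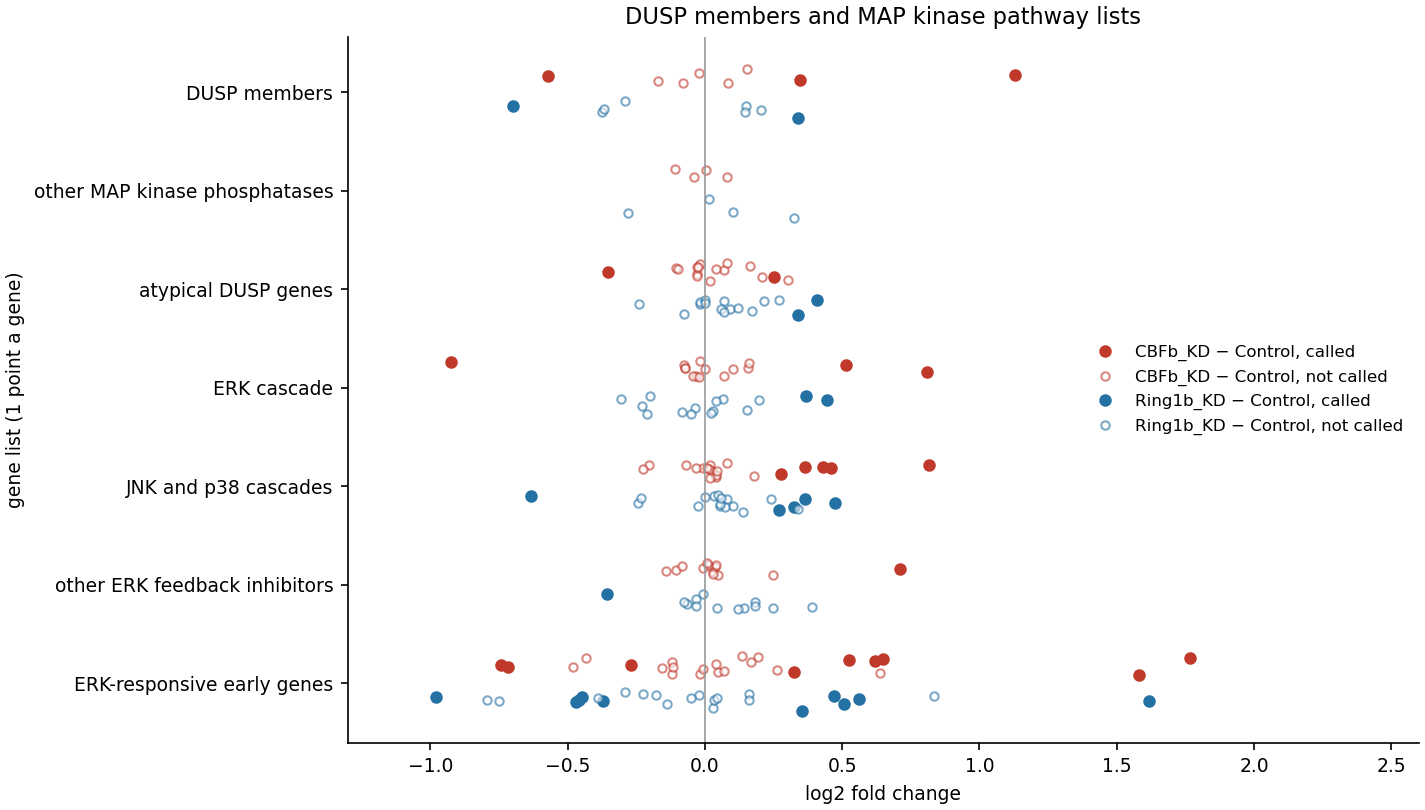
Log2 fold change of each measured gene in the member list and 6 MAP kinase lists, CBFb_KD minus Control above Ring1b_KD minus Control in each list; filled points passed the test. Points of every list fall on both sides of 0.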

How the data were processed

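RNA of 9 L8057 cultures, 3 arrays in each of 3 groups, was hybridised to short-oligonucleotide arrays of 1 colour after oligo-dT priming with a T7 promoter and biotin labelling, per the labels' protocols. The authors deposited log2 values for 45101 probe sets (3.227 to 15.355, the scale judged from the values); how they were summarised and normalized is not given in the sources used here. Deposited array medians differed by up to 0.137, highest in Ring1b_KD, so values were quantile normalized with limma, which removes such a shift whatever its origin. The median Ring1b_KD minus Control difference over all genes went from 0.032 to 0.007 with it. Single genes did not all follow. Dusp2 went from 0.256 to 0.339 and Dusp7 from -0.421 to -0.369, while probe set 1440615_at of Dusp16 went from 0.008 to -0.028. The 64 control probe sets were then left out. Of the other 45037, 34945 had 1 gene symbol, 932 several and 9160 none in the table used. Summaries of short probes compress differences near the floor, and precision is limited by the number of arrays.

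Each gene was represented by its brightest single-symbol probe set, and a parallel fit used all probe sets. limma 3.58.1 in R 4.3.3 (lmFit, eBayes with a trend on the mean) was fitted to all 9 arrays, with Benjamini-Hochberg adjustment and a threshold of 0.05; the scripts were tested on simulated data. The 12 gene lists, the members being 1 of them, were chosen with earlier results of these data known. Genes named were all members, Dusp8, Dusp9, Mapk8, Mapk14, up to 4 called genes per list against Control by smallest adjusted p and up to 2 between the knockdowns, and the 2 genes most alike each called member. Same-numbered CBFb_KD and Control arrays deviated together over genes (Pearson r 0.203, 0.377 and 0.2), and differently numbered ones gave -0.346 to 0.147. The numbers were therefore taken to pair that comparison, although the labels state no pairing. Deviations from a group mean cancel out within the group, so same-numbered and differently numbered values depend on each other. The highest differently numbered value (0.147) also lay near the lowest same-numbered one (0.2), so the pairing is uncertain. In the other comparisons same-numbered arrays did not deviate together (-0.068 to 0.153). The main fit held no block, so its p-values leave any pairing out. Alternatives were the values as deposited, median centring, the mean of probe sets, robust variance, no trend, a 25th-percentile filter, only the 6 arrays compared, replicate number as blocking factor and leaving out each array. A fit with the block on the 6 arrays compared was added after seeing the data. Promoter sequences and coordinates are from RefSeq (GRCm38.p6).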

Additional observations from a re-analysis of the deposited data

Results flagged for a closer look

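Of the 8 members, 2 had effects of the knockdowns that differed from each other by limma's test of the CBFb_KD minus Ring1b_KD difference. For Dusp10 the difference was 1.827 on the log2 scale (limma adjusted p = 8.66e-06), since it was higher than Control in CBFb_KD and lower in Ring1b_KD in every array. It stayed called under all 17 alternatives run. For Dusp6 the difference was 0.459 (limma adjusted p = 0.031), and its arrays in the knockdowns overlapped. Its call was lost in 5 of the alternatives, 4 of which left out 1 array of CBFb_KD or Ring1b_KD.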

How the results depend on the processing

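Over the member genes, the verdict of the test and the direction were kept in 134 of 143 values from alternatives in CBFb_KD against Control, 116 of 135 in Ring1b_KD against Control and 121 of 135 between the knockdowns. On leaving out 1 array at a time, called genes of all 18193 ranged from 1758 to 3004 in CBFb_KD, lowest without Control array 3 and 1847 without CBFb_KD array 2, and from 1146 to 2369 in Ring1b_KD, lowest without Control array 3 and 1222 without Control array 2. Called member genes then ranged from 0 to 3 in Ring1b_KD and from 1 to 3 between the knockdowns, and called member probe sets from 2 to 5 in CBFb_KD and from 2 to 4 in Ring1b_KD. With the replicate block, called member genes in Ring1b_KD, where same-numbered arrays did not deviate together, came to 4 and added Dusp7 and Dusp16. They also came to 4 with arrays centred on their medians, which added Dusp6, Dusp7 and Dusp16 and lost Dusp2 (0.17, limma adjusted p = 0.259). Between the knockdowns they came to 1 with only the 6 arrays compared. In CBFb_KD against Control, where the numbers were taken to pair the arrays, the replicate block kept 3 called member genes and of the named genes only Styxl1 lost its call. The cause of these changes was not tested.

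Between the knockdowns the called difference of Mapk14 (0.356) turned to -0.009, uncalled, for the mean of its probe sets. The other differences that turned sign were uncalled throughout. Under other settings these were Dusp4 (-0.064) and probe set 1460393_a_at of Dusp7 (-0.001) between the knockdowns on the values as deposited, probe set 1440615_at of Dusp16 in Ring1b_KD on the same values (0.008), and Dusp7 (0.044) between the knockdowns for the mean of the probe sets. On leaving out 1 array, Dusp1 ranged from -0.234 to 0.046 in CBFb_KD and from -0.036 to 0.381 in Ring1b_KD, Dusp5 from -0.131 to 0.037 and Dusp6 from -0.006 to 0.205 in CBFb_KD. Between the knockdowns Dusp2 ranged from -0.026 to 0.071 and Dusp4 from -0.084 to 0.102. Probe set 1440615_at of Dusp16 ranged from -0.032 to 0.167 in CBFb_KD, from -0.094 to 0.020 in Ring1b_KD and from -0.003 to 0.196 between the knockdowns. Dusp4 and this probe set fell below the 25th-percentile filter and have no value under it.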
